A study of Polypedilum vanderplanki with 72 samples.

Results

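The V2 line is a line of Pv11 cells in which HSF1 was knocked out and a single HSF1 isoform of the midge, V2, was expressed in its place. Described here is how its polyA RNA 24 h after rehydration (R24) differed from that of the same line after 48 h in trehalose (T48). The libraries were chosen by their labels alone: 3 at R24 and 3 at T48, together 6 of the 72 libraries of the series. Pv11 cells are grown in culture and were derived from Polypedilum vanderplanki, the sleeping chironomid, an African midge known for larvae that can lose nearly all their water and revive. The series sequenced wild-type Pv11 (WT), an HSF1 knockout (KO) and lines that each carry 1 HSF1 form on top of the knockout, with 3 libraries in each of 24 groups.

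R24 V2 cells had been held in 600 mM trehalose for 48 h, dried over silica gel for 11 days and returned to IPL-41 medium for 24 h. T48 V2 cells carried the same knockout and the same isoform, and were taken at the end of the 48 h in 600 mM trehalose, before any drying. The lines V1, V3, V4 and V5-6 carry another Pv isoform in the same KO background, and WT carries no modification; all 5 were sampled at R24 and T48 in the same way. KO and WT libraries from T48 and from a 6 h heat shock (HS6h) were used to choose gene lists, and V2 libraries at HS6h are given for their levels. The labels describe the modified lines as clonal, so the V2 isoform and the clone that carries it cannot be told apart, and they name no promoter for the isoform. No untreated or dried cells are among the groups, so removal of trehalose, drying and rehydration cannot be told apart either.

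HSF1, heat shock factor 1, is a transcription factor that is kept inactive in unstressed cells and that, under stress, forms trimers, binds heat shock elements and switches on chaperone genes. Trehalose is a disaccharide that many animals able to survive drying accumulate, and it protects membranes and proteins in the dry state. Pv11 cells incubated in trehalose before drying can resume growth after rehydration, and in this midge HSF1 is known to take part in switching on genes during desiccation. The deposited table gives gene IDs only and pairs none with a name, so no ID can be assigned to HSF1, to a chaperone or to another protein family, and the level of HSF1 itself was not analysed here.

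R24 V2 libraries held between 6556071 and 8590791 gene counts, and T48 V2 libraries between 3820088 and 4447534. Levels are given as CPM, the counts of a gene relative to the gene counts of its library scaled by TMM, with no correction for gene length. A gene was called when its Benjamini-Hochberg adjusted p from the quasi-likelihood test of edgeR was under 0.05, over 8929 genes tested. With 3 libraries per group whose labels name no separate cultures, the p-values measure a spread that may be technical only. In RNA from many cells, fewer cells that express a gene and less of its RNA per cell cannot be told apart. The strand setting is not given, so overlapping genes and antisense partners may hold each other's reads, and near-identical copies may share reads.

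The R24 libraries differed from the T48 libraries in more than their genes. Reads without a feature came to 44.1%, 45.5% and 44.2% of the gene counts plus such reads at R24, and to 38.5%, 38.3% and 38.8% at T48. The row for reads without a unique alignment came to 7.24, 10.4 and 8.31 per 100 gene counts at R24 and to 3.17, 3.20 and 3.18 at T48. That row equals the row for low quality in every library, so it may not hold what its name says. The 2 groups did not overlap in either property, and 3 against 3 libraries cannot go below the two-sided exact permutation p of 0.1 that both reached. R24 library 2 stood apart from the other 2 R24 libraries: its variance over counting error was 15.4 against library 1 and 11.1 against library 3, while libraries 1 and 3 had 3.21 and pairs of T48 libraries had 2.26 to 2.48. In genes called higher at R24, library 2 lay above the mean of libraries 1 and 3 by a median log2 difference of 0.13, and in genes called lower it lay below by -0.10. Named genes were also refitted at equal depth and without each V2 library, among the alternatives given at the end. For other single genes the part of depth and of library 2 was not tested. The part of reads without a feature was tested for no gene. With libraries thinned to equal gene counts, 5330 of 8398 genes tested were called in R24 against T48, and without library 2 it was 5358.

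Somewhat more genes were higher than lower after rehydration in V2 cells. Of the 8929 genes tested, 5709 were called (63.9%), 2961 of them higher at R24 (33.2%) and 2748 lower (30.8%). The changes were often large: 1547 genes were at least 2-fold higher (17.3%) and 1303 at least 2-fold lower (14.6%). At least 4-fold changes were seen in 569 genes that rose (6.37%) and 391 that fell (4.38%), and at least 16-fold changes in 114 that rose (1.28%) and 40 that fell (0.448%). The median absolute log2 change over all genes tested was 0.71, and the median signed change was 0.05. TMM sets the scale from the bulk of the genes, so rises and falls are relative to it and not to RNA per cell. The 3 R24 libraries did not overlap with the 3 T48 libraries in 6044 genes (67.7%), of which 5460 were also called. Pearson's r of log2(CPM + 0.5) across genes lay between 0.872 and 0.893 for a R24 library with a T48 library, and at 0.979 or above within either group.

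**Figure D1:**
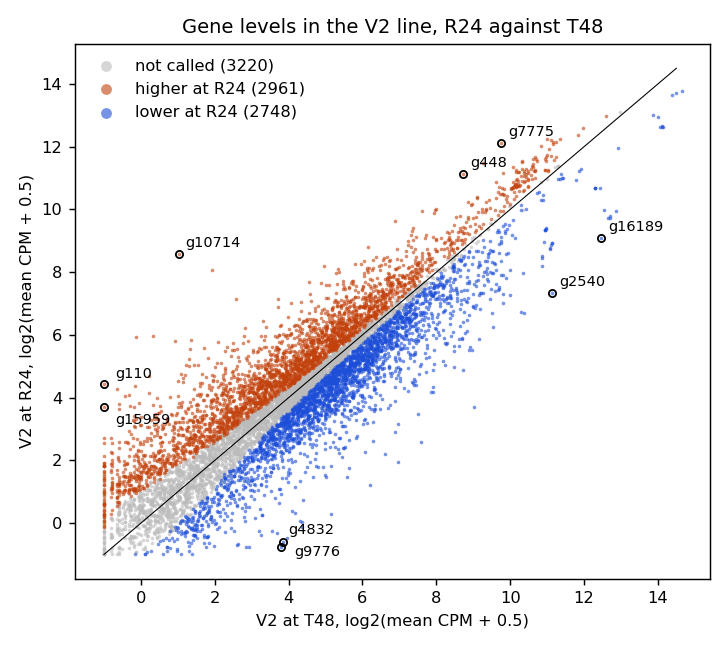
Mean level of each of the 8929 genes tested in the V2 line at R24 (vertical axis) and at T48 (horizontal axis), both as log2(CPM + 0.5), with 1 point per gene and circles around named genes. The 2961 genes called higher and the 2748 called lower lie on both sides of the line of equal level, and the column of points at the left edge holds genes with 0 counts at T48.

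The share of genes called grew with their level. Of genes whose higher group mean was under 5 CPM, 575 of 1750 were called (32.9%), and of those between 5 and 50 CPM, 2810 of 4446 were (63.2%). The share was 83.7% of 2390 genes between 50 and 500 CPM and 94.2% of 343 genes above 500 CPM. The median absolute log2 change of the called genes was 2.16 under 5 CPM and 0.83 above 500 CPM. Smaller changes were thus called in genes with more counts, and the part of counts in the share was not tested. The direction of the calls also differed between classes of level. Above 500 CPM, 181 of the 343 genes rose and 142 fell, but of those that changed at least 2-fold, 41 rose and 87 fell. Below 5 CPM the order was the other way, with 357 of 1750 genes at least 2-fold higher and 196 at least 2-fold lower. Over all genes tested, 17.3% were at least 2-fold higher and 14.6% at least 2-fold lower. The part of the greater depth at R24 in these directions was not tested.

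Some genes were counted at R24 and not at all at T48. Of the 8929 genes tested, 51 called higher had 0 counts in all 3 T48 libraries, and 6 called lower had 0 counts in all 3 R24 libraries. The R24 libraries were deeper: 3 counts over the group stood for 0.113 CPM at R24 and 0.230 CPM at T48. A count of 0 was therefore easier to reach at T48, and the part of depth in these 2 numbers was not tested. The gene g110 had 23.4, 19.0 and 21.6 CPM at R24, against 0 CPM in each T48 library. Against the floor of 3 counts over the T48 group this is at least 93.9-fold higher (adjusted p = 7.85e-20). The gene was not silent in heat-shocked V2 cells, where it averaged 2.50 ± 0.66 CPM (SD, n = 3). In WT and the other isoform lines its R24 means were 26.7 to 85.3 CPM and its T48 means 0.149 to 2.13 CPM. The gene g15959 had 12.0, 13.9 and 11.3 CPM at R24, against 0 CPM in each T48 library, which is at least 53.5-fold higher (adjusted p = 1.81e-15). It was also at 0 counts at T48 in WT and the other 4 isoform lines, and its R24 means there were 0.773 CPM in WT and 2.92 to 15.0 CPM in the isoform lines.

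The genes with the largest falls were nearly lost at R24. The gene g4832 had 0, 0.266 and 0 CPM at R24, which were 2 counts in all, against 18.7, 11.4 and 9.93 CPM at T48. Its T48 level was 173.6 times its R24 level, with a 95% Poisson interval of 48.1 to 1434 that covers counting error only (adjusted p = 3.08e-14). In WT and the other isoform lines it averaged 0 to 0.610 CPM at R24 and 5.36 to 15.6 CPM at T48. The gene g9776 had 0.0927, 0.399 and 0 CPM at R24, against 15.8, 13.8 and 12.4 CPM at T48, a log2 change of -6.33 (SE 0.71, adjusted p = 2.14e-11). Of its 4 counts at R24, 3 were in library 2, and the change was -7.58 without that library. Both genes were at 0 CPM in all 3 heat-shocked V2 libraries. For g9776 the T48 level in V2, 14.0 ± 1.68 CPM, stood beside T48 means of 0.274 to 4.64 CPM in WT and the other isoform lines.

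**Figure D2:**
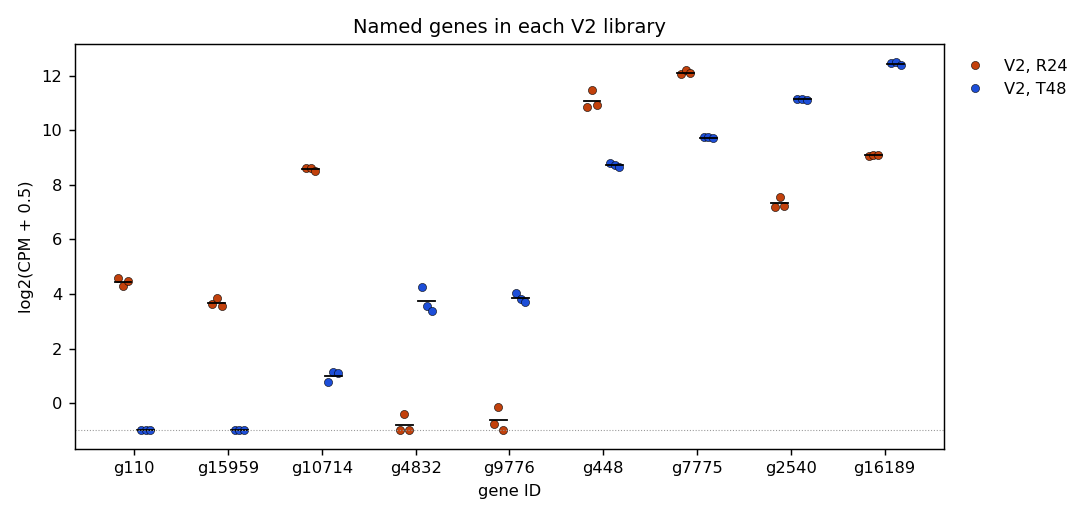
Level of 9 named genes in each V2 library as log2(CPM + 0.5), with R24 libraries on the left and T48 libraries on the right of each gene ID; points are libraries, bars are group means and the dotted line marks 0 CPM. In each of the 9 genes the R24 and T48 libraries do not overlap, which the rule for naming genes required.

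Among the most counted genes, rehydration went with a flatter distribution. The 10 most counted genes of each library took 10.6%, 11.7% and 11.1% of gene counts at R24, against 19.3%, 19.4% and 19.0% at T48. Of the 10 genes with the most counts in each group, 9 were shared, and the 10 of T48 took 10.5%, 11.1% and 11.0% of the gene counts in the R24 libraries. The 100 most counted genes took 39.2%, 41.8% and 39.6% at R24, against 44.4%, 44.6% and 43.8% at T48, and 68 of them were shared between the groups. The number of genes at 1 CPM or more was 8610, 8534 and 8628 at R24, against 8396, 8430 and 8298 at T48. In all these measures the groups did not overlap, with the smallest possible exact permutation p of 0.1 (two-sided, 3 against 3).

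Of 165 genes that averaged 1000 CPM or more over both groups, 105 rose (63.6%, against 33.2% of all genes tested), 51 fell (30.9%, against 30.8%) and 9 were not called. Their median difference was 0.46 ± 0.15 on the log2(CPM + 0.5) scale (SD over the 3 R24 libraries), and 0.37 without R24 library 2, beside 0.05 ± 0.01 for all genes tested. The gene g7775 had 4249, 4701 and 4399 CPM at R24, against 874, 856 and 834 CPM at T48, a log2 change of 2.39 (SE 0.07, adjusted p = 1.33e-36). The gene g448 had 1862, 2849 and 1956 CPM at R24, with library 2 far above the other 2, against 442, 429 and 402 CPM at T48 (log2 change 2.40, SE 0.16, adjusted p = 9.91e-13).

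Among the 51 genes of this class that fell, g2540 had 145, 188 and 149 CPM at R24, against 2252, 2277 and 2213 CPM at T48, a log2 change of -3.80 (SE 0.11, adjusted p = 4.49e-26). The gene g16189 had 531, 550 and 543 CPM at R24, against 5651, 5771 and 5397 CPM at T48, a log2 change of -3.36 (SE 0.07, adjusted p = 2.86e-43). In both, each R24 library lay far below every T48 library. Their heat-shocked V2 levels, 27.0 ± 5.94 CPM for g2540 and 1316 ± 59.5 CPM for g16189, were also below the T48 levels. At T48 the other lines were more spread in g2540 than in g16189, with no test of it: g2540 averaged between 55.4 CPM (V1) and 1187 CPM (V3) in WT and the other isoform lines, and g16189 between 3346 and 4671 CPM.

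Genes that differed between HS6h and T48 in WT cells moved in V2 cells after rehydration largely in the same direction. The labels give 600 mM trehalose for T48 and name none for HS6h. Heat and the absence of trehalose therefore cannot be told apart in these genes, here called heat-induced and heat-repressed. R24 cells had likewise left the trehalose. The lists come from 15 WT and KO libraries, so no V2 library took part in their choice. Of 244 genes at least 4-fold higher in WT at HS6h than at T48, 199 were tested in V2: 145 rose (72.9%, against 33.2% of all genes tested), 11 fell and 43 were not called. The median difference of this list was 1.65 ± 0.19 (SD over the 3 R24 libraries) on the log2(CPM + 0.5) scale, and 1.55 without R24 library 2. Of 429 genes at least 4-fold lower in heat-shocked WT, 427 were tested: 34 rose, 282 fell (66.0%, against 30.8%) and 111 were not called, with a median of -1.13 ± 0.06. Among the 34, g3339 had 13.9, 12.4 and 12.9 CPM at R24, against 0, 1.45 and 0.828 CPM at T48 (log2 change 4.07, SE 0.43, adjusted p = 2.54e-12). Genes removed by the filter on low counts are not in these counts. In the other isoform lines 109 (V4) to 143 (V1 and V3) of the 199 rose, and 213 (V4) to 305 (V3) of the 427 fell.

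The heat-induced gene with the largest rise was counted far more after rehydration than after heat. The gene g10714 had 391, 392 and 367 CPM at R24, against 1.23, 1.69 and 1.66 CPM at T48 (log2 change 7.96, SE 0.24, adjusted p = 3.26e-23). After heat shock it averaged 12.8 ± 2.53 CPM in V2. The gene g17276 had 211, 365 and 227 CPM at R24, again highest in library 2, against 2.71, 4.59 and 2.69 CPM at T48 (log2 change 6.34, SE 0.35, adjusted p = 1.76e-14), and averaged 122 ± 10.5 CPM after heat shock. Other heat-induced genes went the opposite way. The gene g14582 had 132, 122 and 128 CPM at R24, against 414, 404 and 396 CPM at T48 (log2 change -1.65, SE 0.08, adjusted p = 2.77e-27), while its mean after heat shock was 1129 ± 27.1 CPM. No test was run between R24 and HS6h.

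The heat-induced genes were also split by whether they were lower in KO cells after heat shock, a split chosen after the data were seen. Of those tested in V2, 49 were called lower in KO than in WT at HS6h, with no minimum fold. Among the 49, 23 rose (46.9%, against 33.2% of all genes tested), 9 fell and 17 were not called. Their median was 0.70 ± 0.08 at R24 against T48. Of the other 150, 122 rose (81.3%, against the same 33.2%), 2 fell and 26 were not called, with a median of 1.82 ± 0.13. The filter on low counts had left 49 of 70 genes in the first class and 150 of 174 in the other. The 2 shares therefore come from unequally filtered classes. After heat shock the same V2 line had medians of 2.18 ± 0.03 for the 49 genes and 2.53 ± 0.03 for the 150 genes, both relative to T48. The T48 libraries of V2 are shared by these 2 differences. In the other isoform lines 21 (V4) to 32 (V1) of the 49 genes rose at R24, and 88 (V4) to 118 (V3) of the 150. No test compared the 2 classes.

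Of 5 genes that earlier results of these data named as most affected by the knockout, g238, g240 and g241 were little counted after rehydration when compared with heat shock. The gene g238 had 2.41, 3.19 and 2.09 CPM at R24, against 8.62, 7.00 and 8.07 CPM at T48, and fell (log2 change -1.61, SE 0.35, adjusted p = 5.20e-05). The gene g240 had 3.80, 7.17 and 9.20 CPM at R24, against 13.0, 12.1 and 19.2 CPM at T48, and fell as well (log2 change -1.15, SE 0.28, adjusted p = 0.000308). The gene g241 had 2.32, 1.99 and 1.35 CPM at R24, against 2.22, 1.93 and 2.28 CPM at T48, with overlapping libraries and no call (log2 change -0.16, SE 0.58, adjusted p = 0.824; log2 change 0.0071 without R24 library 3). After heat shock the 3 genes averaged 2616 ± 27.3, 6141 ± 81.4 and 1347 ± 60.7 CPM in V2, far above every R24 and T48 library. Their R24 means in WT were 1.89 CPM for g238, 4.35 CPM for g240 and 0.829 CPM for g241. In KO cells all 3 were at 0 counts at T48.

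The other 2 of these genes had lower means after heat shock than at T48 in V2, 79.7 ± 6.05 CPM for g6912 and 121 ± 18.7 CPM for g11936. The gene g6912, at 0.393 CPM in KO cells at T48, had 98.0, 94.7 and 109 CPM at R24, against 263, 253 and 273 CPM at T48, and fell (log2 change -1.37, SE 0.11, adjusted p = 1.03e-13). WT cells averaged 101 CPM of it at R24 and 97.4 CPM at T48. The gene g11936 was high in KO cells (317 CPM at T48) and low in WT cells (1.70 CPM at R24 and 1.96 CPM at T48). In V2 it had 291, 290 and 279 CPM at R24, against 383, 338 and 351 CPM at T48, and fell slightly, by a log2 change of -0.30 (SE 0.08, adjusted p = 0.000494).

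**Figure D3:**
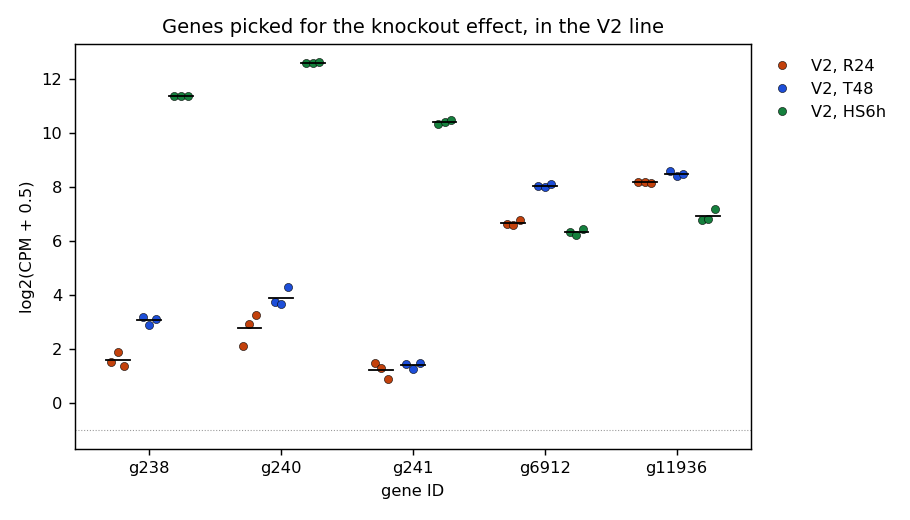
Level of 5 genes picked for the knockout effect in each V2 library at R24, T48 and HS6h, as log2(CPM + 0.5), with bars at group means and a dotted line at 0 CPM. At HS6h the libraries of g238, g240 and g241 lie far above those at R24 and T48, while g6912 and g11936 are highest at T48.

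Genes that were lower without HSF1 in trehalose rose more often than they fell when V2 cells were rehydrated. Of 429 genes with a level in KO at least 2-fold below WT at T48, 425 were tested in V2: 205 rose (48.2%, against 33.2% of all genes tested), 108 fell (25.4%, against 30.8%) and 112 were not called. Their median difference was 0.50 ± 0.04 on the log2(CPM + 0.5) scale, and 0.27 for members with a 4-fold difference or more. In the other isoform lines 158 (V3) to 206 (V5-6) of the 425 genes rose and 82 (V4) to 137 (V3) fell. In WT, whose libraries took part in the choice of the list, 127 rose and 145 fell. The gene g17276 above and g110 are the members with the largest rises. Among members that fell, g12483 had 10.5, 15.9 and 11.4 CPM at R24, against 529, 529 and 495 CPM at T48 (log2 change -5.36, SE 0.16, adjusted p = 3.16e-22), and g16590 averaged 0.215 ± 0.19 CPM at R24 and 15.0 ± 4.03 CPM at T48 (log2 change -5.91, SE 0.50, adjusted p = 4.58e-16).

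The shares in the opposite class were nearer to those of all genes. Of 168 genes at least 2-fold higher in KO than in WT at T48, 165 were tested: 56 rose (33.9%, against 33.2% of all genes tested), 58 fell (35.2%, against 30.8%) and 51 were not called, and the median was -0.041 ± 0.017, with 0.068 for members with a 4-fold difference or more. In this class g3418 averaged 25.4 ± 3.26 CPM at R24 and 0.655 ± 0.62 CPM at T48 (log2 change 5.18, SE 0.38, adjusted p = 1.24e-18). The gene g9382 averaged 5.57 ± 0.47 CPM at R24 and 77.7 ± 6.40 CPM at T48 (log2 change -3.78, SE 0.17, adjusted p = 4.22e-28).

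Lists chosen on the knockout after heat shock lay within about 10 percentage points of all genes tested. Of 334 genes with a level in KO at least 2-fold below WT at HS6h, 312 were tested: 81 rose (26.0%, against 33.2% of all genes tested), 117 fell (37.5%, against 30.8%) and 114 were not called, with a median of -0.15 ± 0.02 and of 0.0030 for members with a 4-fold difference or more. The gene g8843 of this class had 141, 143 and 143 CPM at R24, against 9.11, 4.35 and 2.90 CPM at T48 (log2 change 4.75, SE 0.26, adjusted p = 1.45e-15). The gene g17496 averaged 4.08 ± 0.54 CPM at R24 and 96.4 ± 6.92 CPM at T48 (log2 change -4.53, SE 0.17, adjusted p = 1.96e-31). Of 228 genes at least 2-fold higher in KO at HS6h, 216 were tested: 92 rose (42.6%, against 33.2%), 53 fell (24.5%, against 30.8%) and 71 were not called, with a median of 0.33 ± 0.11. In that class g3183 had 61.7, 61.6 and 57.9 CPM at R24, against 0, 0 and 1.24 CPM at T48 (log2 change 7.00, SE 0.30, adjusted p = 4.76e-28). Its T48 counts came from library 3 alone, and without that library the fitted change was 11.64, a value that depends on the prior count because T48 is then at 0.

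**Figure D4:**
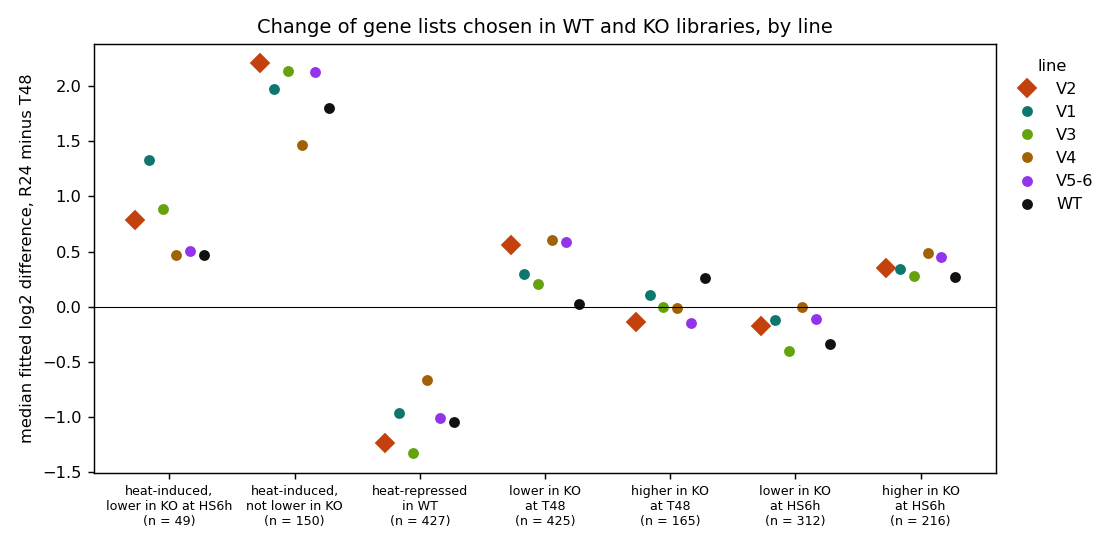
Median fitted log2 difference, R24 minus T48, of 7 gene lists chosen in WT and KO libraries, with V2 (diamond) left of V1, V3, V4, V5-6 and WT (circles); n is the number of genes tested. In V2 the medians run between -1.24 for heat-repressed genes and 2.21 for heat-induced genes not lower in KO after heat shock; WT points share libraries with the choice of the lists.

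The response of V2 cells was set beside that of WT cells, with no library shared between the 2 responses. A response is the log2 change of R24 against T48 in 1 line. In WT, 4983 genes were called (55.8%). The same direction was called in both lines for 3751 genes, which is 65.7% of the V2 calls and 75.3% of the WT calls. Opposite directions were called for 221 genes, 3.87% of the V2 calls and 4.44% of the WT calls. Across the 8929 genes the responses had a Pearson r of 0.720 and a Spearman rho of 0.731, given as a description, since genes of a library share its depth and are not independent replicates. Of 1055 genes that rose at least 2-fold in WT and were tested in V2, 908 rose in V2 (86.1%, against 33.2% of all genes tested) and 11 fell. In the other isoform lines 870 (V3) to 931 (V5-6) of the 1055 rose. Among the 11 that fell in V2 was g1843, with 21.6, 29.4 and 18.4 CPM at R24 in V2, against 46.0, 49.5 and 43.4 CPM at T48 (log2 change -0.99, SE 0.16, adjusted p = 4.57e-07), and with means of 23.3 CPM at R24 and 8.71 CPM at T48 in WT. Of 931 genes that fell at least 2-fold in WT, 787 fell in V2 (84.5%, against 30.8% of all genes tested) and 18 rose. In the other isoform lines 785 (V4) to 840 (V3) of these genes fell. Among the 18 that rose in V2 was g14829, with 27.5, 21.4 and 23.8 CPM at R24 in V2, against 3.94, 4.11 and 4.34 CPM at T48 (log2 change 2.57, SE 0.22, adjusted p = 7.93e-16), and with means of 10.7 CPM at R24 and 33.8 CPM at T48 in WT.

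The test of the difference between the responses called 2500 genes (28.0%), 1256 with a higher value in V2 (14.1%) and 1244 with a lower value (13.9%). In 1188 of the 2500, V2 changed in the same direction as WT and by more, in 429 in the same direction and by less, and in 883 the signs were opposite. All 221 genes called in opposite directions are among the 2500. Without R24 library 2 of V2, 2367 genes were called.

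**Figure D5:**
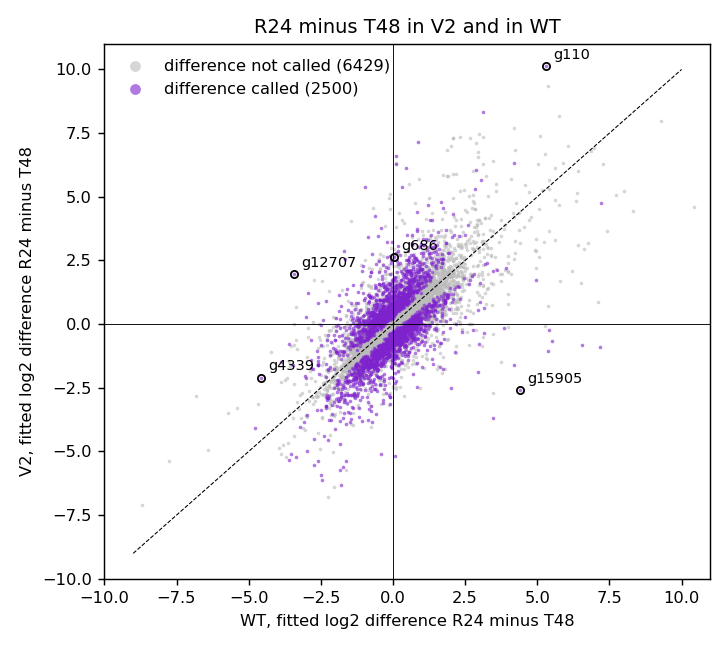
Fitted log2 difference R24 minus T48 of each gene in V2 (vertical axis) and in WT (horizontal axis), with 1 point per gene tested; purple points are the 2500 genes whose difference between the lines was called, and the dashed line marks equal responses. Points gather along the dashed line and extend above and below it, with g12707 and g15905 among the called genes far from it; fitted values of genes with 0 counts in a group depend on the prior count.

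Some of the genes that set V2 apart from WT were hardly counted in WT. The gene g12707 had 11.4, 9.43 and 10.5 CPM at R24 in V2, against 3.69, 1.45 and 2.90 CPM at T48. In WT it had 1 count over the 3 R24 libraries, and its T48 mean was 0.737 CPM, a T48 level 14.8 times the R24 level with a 95% Poisson interval of 2.66 to 586. The responses differed by 5.42 (SE 1.17, adjusted p = 0.000237). In the other isoform lines g12707 averaged 5.41 to 8.90 CPM at R24 and 1.76 to 2.92 CPM at T48, on the side of V2. The gene g15905 had 1.20, 0.930 and 0.981 CPM at R24 in V2, against 7.88, 6.28 and 5.38 CPM at T48. In WT it averaged 0.388 CPM at R24 and had 0 counts at T48, and the fitted difference of responses, which depends on the prior count, was -6.99 (adjusted p = 0.00335). Its T48 means in the other isoform lines were 0.341 CPM or less, while heat-shocked V2 cells averaged 7.48 ± 2.32 CPM.

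Beside the 5709 called genes of V2 stood V3 with 5649 (63.3%), V5-6 with 5479 (61.4%), V1 with 5370 (60.1%), WT with 4983 and V4 with 4906 (54.9%). Genes called and at least 4-fold changed numbered 569 up and 391 down in V2, against 353 to 508 up and 203 to 369 down in the other lines. These counts come from 1 fit, and no test compared them between lines. Leaving out any of the V2 libraries gave 5348 to 5526 in V2. V3 was not recounted with fewer libraries, so these values do not bear on the order of V2 and V3. The tested differences of responses were fewest against V5-6, with 841 genes called (9.42%), followed by V3 with 1896 (21.2%), V4 with 2110 (23.6%) and V1 with 2618 (29.3%). These 4 tests share the V2 libraries. Of all genes tested, 192 had a response higher in V2 than in each of the other 5 lines (2.15%), 154 had a lower one (1.72%), and 4544 differed from none of them (50.9%).

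Against the mean response of V1, V3, V4 and V5-6, 2166 genes differed (24.3%), 1052 higher in V2 (11.8%) and 1114 lower (12.5%). For 1540 of them V2 lay farther from the other lines at T48, and for 626 at R24. Of the 376 that differed at least 2-fold, 302 were farther from the mean of the other 4 lines at T48 and 74 at R24. The median absolute log2 distance of these 376 genes was 0.38 at R24 and 1.12 at T48. Counting levels in place of responses, V2 differed from the mean of the other 4 in 2608 genes at R24 (29.2%) and in 3396 at T48 (38.0%). The same count for the other 4 isoform lines, each against the mean of its own other 4, ran between 972 (10.9%) and 4318 (48.4%) at R24 and between 1368 (15.3%) and 3323 (37.2%) at T48. The comparison of levels was added after the data were seen.

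The gene g686 shows this order. It had 39.4, 29.8 and 37.5 CPM at R24 in V2, against 7.14, 4.83 and 5.38 CPM at T48, and rose (log2 change 2.64, SE 0.17, adjusted p = 3.01e-21). In the other isoform lines it averaged 31.1 to 45.4 CPM at R24 and 33.1 to 61.3 CPM at T48. At R24 V2 was within their range (log2 difference -0.04, SE 0.09, adjusted p = 0.822), and at T48 it was below all 4 (log2 difference -3.01, SE 0.15, adjusted p = 2.23e-25). The difference of responses was 2.98 (SE 0.18, adjusted p = 1.11e-20).

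The gene g3812 also lay farther from the other isoform lines at T48, but above them. It had 0.463, 1.06 and 0.123 CPM at R24 in V2, against 21.2, 19.8 and 16.6 CPM at T48, while the other isoform lines averaged 0.356 to 0.600 CPM at R24 and 0 to 2.37 CPM at T48. The difference of responses was -4.81 (SE 0.70, adjusted p = 1.99e-07). At T48 V2 was above every library of the other 4 lines. The gene g14848 differed at R24 (log2 difference 1.36, SE 0.18, adjusted p = 1.79e-08) and, in the other direction, at T48 (log2 difference -1.68, SE 0.39, adjusted p = 0.000393). It averaged 12.9 ± 1.52 CPM at R24 and 0.925 ± 0.25 CPM at T48 in V2, and the other isoform lines averaged 2.85 to 9.01 CPM at R24 and 2.06 to 5.05 CPM at T48. Its difference of responses was 3.04 (SE 0.42, adjusted p = 6.03e-08), and it rose in V2 (log2 change 3.79, SE 0.37, adjusted p = 1.27e-13).

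Single lines differed from V2 in genes of other kinds of pattern. Against V4, g2994 had 72.8, 82.2 and 65.7 CPM at R24 in V2, against 5.42, 6.04 and 8.07 CPM at T48, and in V4 it averaged 1.23 ± 0.11 CPM at R24 and 4.65 ± 1.80 CPM at T48 (difference 5.38, SE 0.43, adjusted p = 3.14e-15). Its V2 level at R24 was close to that of V3, 78.2 ± 3.26 CPM, and above the 7.05 to 18.5 CPM of WT, V1 and V5-6. Against V5-6, g4339 averaged 117 ± 11.8 CPM at R24 and 511 ± 40.8 CPM at T48 in V2, and 27.3 ± 4.22 CPM at R24 and 841 ± 32.3 CPM at T48 in V5-6 (difference 2.83, SE 0.19, adjusted p = 2.16e-11). It fell in both lines, and by less in V2. Against V3, g7911 averaged 5.30 ± 1.74 CPM at R24 and 0.544 ± 0.16 CPM at T48 in V2, and 4.86 ± 0.91 CPM at R24 and 8.65 ± 0.56 CPM at T48 in V3 (difference 4.08, SE 0.57, adjusted p = 8.00e-08). Between V2 and V3 the R24 levels of g7911 were close in value and the T48 levels were not. Unlike g686, it was lower in V2 than the mean of the other 4 isoform lines at R24 (log2 difference -0.89, SE 0.21, adjusted p = 0.000756). At T48 it was lower as well (log2 difference -3.58, SE 0.44, adjusted p = 7.45e-10).

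Transcripts of a gene also changed relative to each other. The test asked whether any transcript of a gene moved differently from the rest, in 5896 genes with 25937 transcripts, and a read can be counted in several transcripts of a gene. It called 1811 genes (30.7%), 1378 of which were also called at the gene level and 433 of which were not. The leading transcript was relatively higher at R24 in 673 of them and relatively lower in 1138, and in 256 it changed at least 2-fold relative to its gene. With limma's diffSplice on the same genes, 2212 were called and the directions were even, 1100 higher and 1112 lower, so the lean to lower was not seen with that tool. Without R24 library 2, 1422 genes were called.

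In g12482, transcript t1 had 0.586%, 0.785% and 0.621% of the count of the most counted transcript of the gene at R24, against 8.90%, 9.01% and 8.58% at T48 (relative log2 change -2.08, adjusted p = 3.01e-68). The gene itself fell to 1643 ± 79.7 CPM at R24, against 5575 ± 60.0 CPM at T48. In heat-shocked V2 cells the share was 0.582 ± 0.13%, near that at R24, and in WT it was 3.97 ± 0.39% at R24 and 9.56 ± 0.35% at T48. In g12123, transcript t9 had 4.93%, 2.50% and 4.54% at R24, against 28.1%, 27.9% and 25.3% at T48 (relative log2 change -1.88, adjusted p = 5.30e-61). Here the gene rose, to 336 ± 7.88 CPM at R24 against 132 ± 11.3 CPM at T48.

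The opposite order was seen in g11871 and g5495. Transcript t23 of g11871 had 15.8%, 17.5% and 17.4% at R24, against 5.06%, 5.26% and 4.70% at T48 (relative log2 change 1.52, adjusted p = 3.67e-49). Transcript t4 of g5495 had 22.3%, 23.6% and 20.3% at R24, against 5.66%, 4.67% and 5.74% at T48 (relative log2 change 1.55, adjusted p = 2.11e-45). Both genes fell in level while these transcripts gained share, g11871 to 208 ± 7.11 CPM at R24 against 678 ± 23.4 CPM at T48, and g5495 to 250.5 ± 16.8 CPM at R24 against 721 ± 16.5 CPM at T48. In heat-shocked V2 cells the shares were 15.3 ± 2.15% for t23 and 22.5 ± 1.02% for t4, within or near the R24 values.

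Genes with consecutive ID numbers often changed together. Of the 569 genes that rose at least 4-fold, 136 had a gene numbered directly before or after them in the same set (23.9%), while 7.90% of all genes tested had such a neighbour in that set. Of the 391 genes that fell at least 4-fold, 107 had one (27.4%, against 5.47% of all genes tested). The longest run was 9 consecutive IDs in either direction. The files do not tie the numbers to positions in the genome, so consecutive numbers may stand for neighbours, for related copies that share reads, or for neither, and this was not tested.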

How the data were processed

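What the authors deposited is a single file of raw counts: for each of 65235 transcripts, the number of reads assigned to it in each of 72 polyA libraries, with no scaling. The submitters' processing notes list the tools FastQC 0.11.9, Trimmomatic 0.39, HISAT2 2.2.1 and HTSeq 2.0.9, without saying how each was set. Genome build, annotation and strand setting are not given in the sources used here. The transcripts belong to 17156 genes, and 0 gene IDs matched the 17863 loci of the reference table. Each gene was represented by its transcript with the highest total; the transcripts together hold 18.5 to 26.1 times as many counts, so a read can be in several of them. The file also holds 5 rows that name no transcript, which stayed out of library sizes and tests; the shares of reads without a feature stand in the results. The rows for low quality and for reads without a unique alignment are equal in all 72 libraries, so the second may not hold what its name says.

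The 36 libraries of the 6 lines with both R24 and T48 shared a fit in edgeR 4.0.16 (limma 3.58.1, R 4.3.3), with filterByExpr, TMM and the quasi-likelihood test. Differences of responses were contrasts of the same fit, and transcript usage was tested with diffSpliceDGE. Gene lists came from a separate edgeR fit of 15 WT and KO libraries. CPM use TMM factors of all 72 libraries, and log2 levels a pseudocount of 0.5. The median of a list is taken over genes for each R24 library minus the T48 mean. Folds against a group at 0 use a floor of 3 counts over the group, and intervals and floors cover counting error only.

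Named genes are at most 2 that rose and 2 that fell per comparison or list: those called, not overlapping between groups, with a mean of 5 CPM or more and the largest log2 changes; for transcript usage, the smallest p-values. Also named are the 5 genes that earlier results gave as most affected by the knockout. The members and lists were chosen with earlier results of these data known. Lists by gene symbol could not be used. Alternatives were other fits, scalings, filters, tools (DESeq2 1.42.0, limma voom), gene measures and leaving out each V2 library. The scripts were tested on simulated data.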

Additional observations from a re-analysis of the deposited data

Results flagged for a closer look

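The change between T48 and R24 differed between V2 and other lines by the test of the difference itself. Over 8929 genes it called 2500 against WT, 2618 against V1, 1896 against V3, 2110 against V4, 841 against V5-6 and 2166 against the mean of V1, V3, V4 and V5-6. At an unadjusted p under 0.05 the counts were 3340 against WT and 1953 against V5-6.

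Among the genes named for these differences, the response of V2 minus that of WT was 5.42 for g12707, 5.20 for g6192, -6.99 for g15905 and -5.80 for g15904 on the log2 scale. The gene g6192 averaged 6.04 ± 0.68 CPM at R24 in V2 and had 0 counts at T48, at least 26.6-fold higher. In WT it averaged 2.47 CPM at R24 and had 3 counts at T48, a ratio of 9.17 (95% Poisson interval 3.14 to 44.5). Its adjusted p for the difference was 0.0379 and did not stay under 0.05 in each alternative. The gene g15904 averaged 2.06 ± 0.20 CPM at R24 and 6.38 ± 2.85 CPM at T48 in V2, and 0.338 CPM at R24 in WT with 0 counts at T48 (adjusted p of the difference 0.0422). The fitted differences of g6192, g15904 and g15905 depend on the prior count, since a group is at 0.

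Against the mean of the other 4 isoform lines the difference was 3.04 for g14848, 2.98 for g686, -4.81 for g3812 and -4.56 for g15904. Against single lines it was 3.88 for g14848 (V1), 4.08 for g7911 (V3), 5.74 for g6760 and 5.38 for g2994 (V4), and 2.83 for g4339 (V5-6). The gene g6760 averaged 5.41 ± 1.05 CPM at R24 in V2 and had 1 count at T48, a ratio of 70.4 (95% Poisson interval 12.6 to 2781), while V4 averaged 0.785 CPM at R24 and 0.746 CPM at T48.

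A row of the table outside the gene counts also differed. The row for reads without a unique alignment averaged 8.66 ± 1.63 per 100 gene counts at R24 and 3.18 ± 0.01 at T48 in V2, highest in R24 library 2 with 10.4.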

How the results depend on the processing

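All 7 counts of called genes in the comparisons of levels and responses stayed within 1.5 times their value under each alternative. For R24 against T48 they ran between 5052 (at least 10 CPM in 3 libraries) and 5805 (DESeq2), with 5330 at equal depth, an alternative added after the data were seen, and 5348 to 5526 when a V2 library was left out. Transcript usage fell to 692 genes called with a minimum of 10 CPM, which left 1663 genes to test, and was 2212 with limma's diffSplice, 1100 higher and 1112 lower; leaving out a V2 library gave 1422 to 1682.

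List medians moved more. With counts summed over all transcripts they were 0.22 (lower in KO at T48), -0.021 (higher in KO at T48), -0.053 (lower in KO at HS6h), 0.17 (higher in KO at HS6h), 0.46 (heat-induced), -0.53 (heat-repressed), 0.88 (higher in WT at R24) and -0.89 (lower in WT at R24). The sums make every CPM smaller beside a fixed pseudocount; with the pseudocount scaled to the totals, added after the data were seen, the first 3 were 0.61, -0.022 and -0.090 and the other lists were within their spread. With list thresholds of 4-fold, and 8-fold for heat, the medians were 0.27 (lower in KO at T48), 0.068 (higher in KO at T48, the sign reversed), 0.0030 (lower in KO at HS6h, reversed), -1.45 (heat-repressed), 2.05 (higher in WT at R24) and -2.17 (lower in WT at R24); the cause was not tested for the reversals. Leaving out a V2 library gave -0.067 to -0.022 for genes higher in KO at T48 and -0.165 to -0.127 for genes lower in KO at HS6h.

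The share of the most counted genes differed by -8.09 percentage points for 10 genes and -1.93 for 1000 genes, and the number of genes at 5 CPM or more by 376.3. The change of g241 ran between -0.36 and 0.0071 when a V2 library was left out, positive only without R24 library 3. Of 1007 settings over 66 results of named genes, 965 kept direction and side of the threshold, 41 lost the call and 1 reversed. Differences that lost it in some setting were those of g6192 and g15904 with WT, and g110, g14974, g8786 and g15905 are among the others. No paired analysis was possible because the labels number libraries across the series, so R24 and T48 libraries of a line share no number.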
